A study of Arabidopsis thaliana with 6 samples.

Results

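Clathrin-coated vesicles carry cargo from the plasma membrane and the trans-Golgi network. The genes examined here include those for the coat and for proteins that attach it to membranes. The set is the 49 of 27655 genes whose description in the deposited table holds "clathrin", "ENTH/" or a word that begins with "epsin". RNA was sequenced from mature pollen of Arabidopsis thaliana, in which 2 sperm cells (SCs) lie within a larger vegetative cell. SCs were compared with vegetative nuclei (VN), with 3 libraries each. All plants were wild type in genotype and carried the marker transgenes MGH3p::MGH3-GFP, which labels SC chromatin from a sperm histone promoter, and ACT11p::H2B-mRFP, which labels the VN from an actin promoter. Flowering was induced in long days after growth in short days. Both populations were sorted by fluorescence after the pollen had been cracked, and the SC libraries come from whole cells whereas the VN libraries come from nuclei, so that cell type and cell compartment cannot be told apart in any comparison below. No label says whether libraries came from separate plants, and the p-values measure only the spread between these libraries. Values are TPM (transcripts per 1000000), which are scaled for transcript length, and in such pooled material fewer cells with a transcript and less of it per cell cannot be told apart.

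Clathrin is a 3-legged protein made of heavy chains with light chains bound to them, and many such units form a cage around a budding vesicle. Clathrin does not bind lipid itself. It is brought to the membrane by adaptors, among them the 4-subunit adaptor protein (AP) complexes, the epsins with an ENTH domain, and the AP180 or PICALM proteins with an ANTH domain, which both bind phosphoinositides and clathrin. In pollen tubes, endocytosis by clathrin balances the secretion that drives tip growth. The domains that the RefSeq annotation records divided the 49 genes into 18 with an ANTH domain, 7 with an ENTH domain, 6 with VHS and GAT domains, which bind ubiquitin-tagged cargo, 3 with a domain that binds the tail of RNA polymerase II, 7 medium and 2 small adaptor subunits, 2 heavy chains, 3 light chains and 1 other. The polymerase-binding domain shares its fold with ENTH and VHS domains, and its 3 genes carry the description without being known as endocytic. PICALM names are those of the study, and genes named in none of the sources used here keep their locus identifier.

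The upstream sequences of 6 genes, CLC2 and 5 ANTH genes, are shown first, because 3 of them were higher in SCs and 3 were higher in VN. Each is the 200 bases before the annotated start in RefSeq TAIR10.1, on the strand of the gene, and capitals mark AACCG or its complement CGGTT, the core bound by the sperm-lineage factor DUO1.
CLC2 (chr2:16726224-16726423, plus strand): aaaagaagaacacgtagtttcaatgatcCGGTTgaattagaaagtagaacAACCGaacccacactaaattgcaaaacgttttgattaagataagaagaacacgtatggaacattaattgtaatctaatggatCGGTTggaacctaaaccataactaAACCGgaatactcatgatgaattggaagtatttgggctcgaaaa
PICALM1a (chr2:268514-268713, plus strand): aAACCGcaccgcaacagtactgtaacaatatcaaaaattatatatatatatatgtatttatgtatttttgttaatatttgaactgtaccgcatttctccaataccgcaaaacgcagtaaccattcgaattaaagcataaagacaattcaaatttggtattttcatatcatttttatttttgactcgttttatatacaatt
PICALM9c (chr2:425852-426051, plus strand): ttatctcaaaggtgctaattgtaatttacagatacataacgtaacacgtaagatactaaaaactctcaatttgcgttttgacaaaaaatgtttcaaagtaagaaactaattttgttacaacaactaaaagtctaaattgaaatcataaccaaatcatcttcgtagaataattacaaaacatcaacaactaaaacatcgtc
PICALM9a (chr1:8844942-8845141, plus strand): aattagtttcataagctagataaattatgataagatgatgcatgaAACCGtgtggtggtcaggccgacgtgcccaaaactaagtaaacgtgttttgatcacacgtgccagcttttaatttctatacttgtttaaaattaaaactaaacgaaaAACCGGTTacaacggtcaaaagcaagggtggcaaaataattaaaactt
PICALM9b (chr1:25524518-25524717, plus strand): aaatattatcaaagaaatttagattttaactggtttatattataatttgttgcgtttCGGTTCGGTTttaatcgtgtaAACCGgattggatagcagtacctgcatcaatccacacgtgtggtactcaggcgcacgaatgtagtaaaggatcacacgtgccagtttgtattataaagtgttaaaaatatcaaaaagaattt
PICALM5A (chr1:707285-707484, plus strand): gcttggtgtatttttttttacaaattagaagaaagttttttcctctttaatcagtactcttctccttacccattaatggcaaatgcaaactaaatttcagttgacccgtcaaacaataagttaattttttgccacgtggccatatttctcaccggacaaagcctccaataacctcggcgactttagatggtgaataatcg

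CLC2, PICALM1a and PICALM9c were those higher in SCs, and PICALM9a, PICALM9b and PICALM5A those higher in VN. On either strand, and with overlapping matches counted, the motif occurred 4 times before CLC2, 1 time before PICALM1a and 0 times before PICALM9c. It occurred 3 times each before PICALM9a and PICALM9b and 0 times before PICALM5A. Of the windows of 27443 protein-coding genes, 20.0% held AACCG, 3.22% held at least 3 matches and 1.36% at least 4. It was present before 3 of the 6 genes called higher in SCs and 3 of the 20 called higher in VN. Other motifs were searched on both strands. TTGAC was present before 3 of the 6 and 10 of the 20 genes, and in 38.7% of all windows. AGAAA was present before 4 of the 6 and 18 of the 20, and in 75.3% of all windows. CACGTG was present before 8 of the 49 genes and in 5.64% of all windows. Among the 8, PICALM5A, PICALM9a and PICALM9b were called higher in VN and AT4G32760 higher in SCs. CHC2 and TOL5, also among them, were called in neither direction, and AT3G46540 and AT3G61800 were not tested. The longest run shared by the windows of paralogue pairs was also sought. PICALM9a and PICALM9b share the 15-base run gatcacacgtgccag, which holds CACGTG. It begins 105 bases before the start of PICALM9a and 53 bases before that of PICALM9b, and was in 2 of the 27443 windows on either strand. PICALM5A and PICALM5B share 11 bases, also in 2 windows. AT4G25940 and AT5G57200 share 11 bases, in 4 windows, and PICALM1a and PICALM1b 8 bases, in 1245. A run taken from 2 windows is in at least 2 by construction. The motifs and the runs were looked at after the expression values were known, and a match is a description of sequence, not a binding site.

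Of the 49 genes, 36 had 1 TPM or more in 2 or more libraries and were tested with limma on log2(TPM + 1). Differential expression (DE) required an adjusted p under 0.01 by the method of Benjamini and Hochberg over the 10955 genes tested, together with a log2 fold change (SC minus VN) beyond 1 in either direction. A gene could pass this filter through 1 cell type alone, so the counts describe the 36 and not the 49. Of the 36, 20 were DE with higher expression in VN, 6 were DE with higher expression in SCs and 10 were not DE. These counts are 55.6% and 16.7% of the tested genes, beside 35.6% and 29.2% over all genes tested. The share that was DE in either direction was 72.2%, beside 64.9% over all genes. The SC and VN libraries did not overlap for 29 of the 36 genes, beside 77.3% of all genes tested. The 36 genes had a median log2 fold change of -2.41 and all genes tested one of -0.55. Centring each library on its median moved the latter to -0.03 and the former to -1.89. Together the 49 genes made up 1151 to 1303 TPM in the SC libraries and 4848 to 5615 TPM in the VN libraries. The 13 genes that were not tested reached at most 4.10 TPM in any library, and AT1G08670, an ENTH gene, was listed at 0 in all 6.

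Each library was checked for RNA of the other cell type. The 8 sperm markers were all DE toward SCs and the 12 vegetative markers all toward VN. The sperm markers summed to between 21354 and 28822 TPM in SC libraries and between 365 and 703 TPM in VN libraries, and the vegetative markers to between 857 and 1186 TPM in SC libraries and between 25912 and 32387 TPM in VN libraries. The mean of a sperm marker in VN was 0.576% to 7.82% of its mean in SCs, with a median of 2.12%, and vegetative markers in SCs stood at 0.174% to 8.60% of their VN mean, with a median of 2.14%. Markers of green tissue and tapetum summed to at most 3.79 and 1.17 TPM in any library. For the 20 genes higher in VN, the SC mean was 0.252% to 25.0% of the VN mean, with 16 genes within the range of the vegetative markers and 4 above it. For the 6 genes higher in SCs, 2 lay within the range of the sperm markers, 2 below and 2 above. The part of RNA from the other cell type in these low values was not tested.

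The ANTH genes supplied most of the RNA of the whole set, 81.4% to 83.4% of it in SCs and 83.2% to 87.6% in VN. They split into a group high in VN and a smaller group high in SCs. Of the 13 that were tested, 9 (69.2%) were higher in VN and 3 (23.1%) in SCs, beside 35.6% and 29.2% of all genes tested. The median log2 fold change of the 13 was -4.92. ANTH proteins gather clathrin and cargo at the plasma membrane, and in Arabidopsis some members are known to retrieve vesicle SNARE proteins or, in pollen tubes, receptor kinases. ANTH genes summed to between 959.8 and 1079 TPM in the SC libraries, and to between 4031 and 4846 TPM in the VN libraries.

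PICALM1a was the most abundant ANTH gene in SCs, at 696, 597 and 644 TPM, against 20.8, 23.4 and 23.5 TPM in VN. All SC libraries lay far above all VN libraries, the SC mean was 28.6 times the VN mean, and the log2 fold change was 4.78 ± 0.17 (SE; limma adjusted p = 2.92e-07). Its paralogue PICALM1b was lower in level but differed in the same direction, with 48.6, 40.6 and 50.5 TPM in SCs and 0.0531, 3.58 and 0.221 TPM in VN. The log2 fold change of PICALM1b was 4.71 ± 0.54, with an adjusted p of 8.52e-05 by limma. The widest gap on the log2 scale among the genes higher in SCs was that of PICALM9c, a single-exon gene, at 191, 211 and 218 TPM in SCs and 0.142, 0.908 and 0 TPM in VN. One VN library listed PICALM9c at 0, the other VN values were under 1 TPM, and the log2 fold change was 7.32 ± 0.30 (adjusted p = 3.65e-07, limma).

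The most abundant gene of the set was PICALM9b, at 1296, 1904 and 1957 TPM in VN and 40.9, 37.9 and 79.6 TPM in SCs. The groups did not overlap, the VN mean was 32.5 times the SC mean, and SC replicate 3 was the highest of the SC libraries. PICALM5A stood at 795, 858 and 963 TPM in VN and 19.4, 20.1 and 27.5 TPM in SCs. PICALM9a followed at 681, 785 and 774 TPM in VN and 20.3, 24.5 and 26.6 TPM in SCs. PICALM5B, the closest relative of PICALM5A by name, was at 639.5, 683 and 680.2 TPM in VN and 18.0, 19.0 and 22.5 TPM in SCs. These 4 genes made up 84.6% to 90.3% of the ANTH TPM in VN and 9.43% to 14.5% of it in SCs. Their SC means were 2.56% to 3.19% of their VN means, within the range of the vegetative markers. The part of vegetative RNA in the SC share was not tested. The log2 fold changes of the 4 genes lay close together, at -5.06 ± 0.31 for PICALM9b, -5.24 ± 0.20 for PICALM5A, -4.92 ± 0.18 for PICALM9a and -5.01 ± 0.18 for PICALM5B (SE). The limma adjusted p was 2.23e-06 for PICALM9b and 2.73e-07 for PICALM5B.

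PICALM9d had the largest log2 fold change toward VN of the 36 genes, with 277, 295 and 229.7 TPM in VN and 1.32, 0.476 and 0.223 TPM in SCs. Its log2 fold change was -7.37 ± 0.30 (adjusted p = 3.52e-07, limma), and the SC values were near the bottom of the measured range. AP180, also called PICALM6 and named after an animal protein that promotes the assembly of clathrin cages, was at 98.3, 88.9 and 66.9 TPM in VN and 5.37, 4.72 and 3.78 TPM in SCs. Its log2 fold change of -3.92 ± 0.26 was the smallest of the ANTH genes higher in VN. PICALM3 was at 54.2, 43.6 and 35.4 TPM in VN and 0.450, 0.735 and 0.759 TPM in SCs.

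The remaining pair of ANTH genes higher in VN was of moderate level there. AT5G57200 was at 106, 61.1 and 65.5 TPM in VN and 0.144, 0.533 and 0.0621 TPM in SCs. AT4G25940 was at 59.2, 40.0 and 49.9 TPM in VN and 0.0171, 0.386 and 0.645 TPM in SCs. No SC library reached 1 TPM for either gene, and 4.79% and 4.59% of their 31-base words occurred in exons of the other. The last tested ANTH gene, AT4G32285, was at 1.69, 1.72 and 2.1001 TPM in SCs and 1.59, 0.158 and 1.04 TPM in VN. Its groups did not overlap, but the fit gave a log2 fold change of 0.63 ± 0.38, an interval of -0.25 to 1.51 and an adjusted p of 0.157 by limma. The ANTH genes higher in VN had 1 to 16 exons, with 4 of 9 in a single exon, and 1 of the 3 higher in SCs had a single exon.

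**Figure D1:**
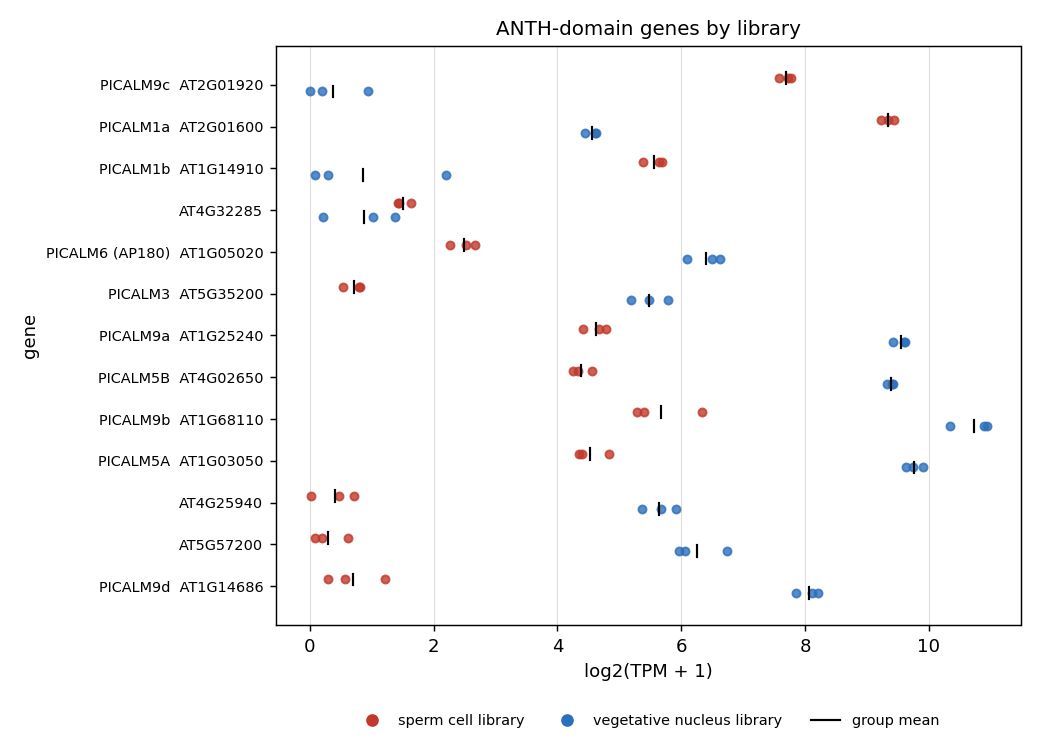
TPM of the 13 tested ANTH genes on a log2(TPM + 1) scale, with 1 point per library and a bar at the mean of the log values of each group. PICALM9c, PICALM1a and PICALM1b lie to the right in SCs, 9 genes lie to the right in VN, and AT4G32285 is low in both.

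Epsins bend membranes and link ubiquitin-tagged or SNARE cargo to clathrin. Of the 5 ENTH genes tested, 4 were higher in VN and 0 in SCs, beside 35.6% and 29.2% of all genes tested. The median log2 fold change of the 5 was -2.75. EPSIN3 was the most abundant, at 390.3, 363 and 343 TPM in VN and 6.48, 4.67 and 7.06 TPM in SCs. The VN mean of EPSIN3 was 60.2 times the SC mean, with a log2 fold change of -5.71 ± 0.22 and an adjusted p of 3.16e-07 (limma). EPSIN3 overlaps AT3G59295 on the other strand over 601 bases, and reads of the 2 genes cannot be told apart in a library without strand. EPSIN2, which also has neighbours on the other strand, was at 78.8, 63.8 and 60.3 TPM in VN and 0.822, 0.545 and 0.906 TPM in SCs, with a log2 fold change of -5.28 ± 0.26.

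EPSIN1, known for transport from the Golgi to the vacuole, was the epsin with the highest level in SCs, at 13.7, 9.54 and 11.1 TPM, against 68.4, 108 and 45.5 TPM in VN. The VN mean was 6.45 times the SC mean, the log2 fold change was -2.52 ± 0.34 and the adjusted p was 0.000213 (limma). EPSIN1 held 58.2% to 65.2% of the summed TPM of EPSIN1, EPSIN2 and EPSIN3 in the SC libraries and 10.14% to 20.1% in the VN libraries. EPSIN3 held 30.9% to 37.0% in SCs and 67.9% to 76.4% in VN. The SC means of EPSIN3 and EPSIN2 were 1.66% and 1.12% of their VN means, within the range of the vegetative markers. That of EPSIN1 was 15.5%, above the range. The part of vegetative RNA in these SC shares was not tested. MTV1, an ENTH protein of vacuolar trafficking, was at 10.9, 16.5 and 23.8 TPM in VN and 1.65, 1.99 and 1.14 TPM in SCs (log2 fold change -2.75 ± 0.35; adjusted p = 0.000153, limma). AT3G23350 was at 1.55, 0 and 1.496 TPM in VN and 0, 0.201 and 0 TPM in SCs, and was not DE.

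The 2 clathrin heavy chain genes, whose products form the legs of the cage, summed to 2.91 to 3.66 TPM in SCs and 4.59 to 17.9 TPM in VN. CHC1 was at 0.742, 0.760 and 1.16 TPM in SCs and 11.3, 3.72 and 12.6 TPM in VN. Its groups did not overlap, and the log2 fold change was -2.30 ± 0.45 (adjusted p = 0.00176, limma), although leaving out any 1 of the SC libraries raised the adjusted p to between 0.0109 and 0.0138. CHC2 was at 2.49, 2.15 and 2.51 TPM in SCs and 1.27, 0.864 and 5.38 TPM in VN. The VN values of CHC2 lay on both sides of the SC values, and the interval of its log2 fold change, -0.95 to 1.29, included no change as well as changes of about 1 log2 unit (adjusted p = 0.756, limma).

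CHC1 took 22.9%, 26.2% and 31.6% of the heavy chain TPM in the SC libraries and 89.8%, 81.2% and 70.0% in the VN libraries. The means were 26.9% ± 4.35 and 80.4% ± 9.93 (SD, n = 3 each). The SC shares rest on CHC1 values of 0.742 to 1.16 TPM, and the precision of values near 1 TPM is not known. The exact permutation test (two-sided) gave p = 0.1, the smallest value that 3 libraries against 3 can give. Of the 31-base words in the exons of CHC1, 7.73% also occurred in CHC2, and 8.03% of those of CHC2 in CHC1, so that some reads fit both genes.

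The light chains, which regulate the assembly of the cage, differed by gene. CLC2 was at 36.4, 29.2 and 33.0 TPM in SCs and was listed at 0 in all 3 VN libraries. CLC2 was called higher in SCs (adjusted p = 1.05e-06, limma), and no fold is given against values listed at 0. CLC2 held 81.0% to 85.7% of the light chain TPM in SCs. AT2G20760, another light chain, was at 3.00, 4.14 and 5.62 TPM in SCs and 17.6, 23.4 and 10.02 TPM in VN. Its VN mean was 4.001 times the SC mean, with a log2 fold change of -1.73 ± 0.37 and an adjusted p of 0.00307 (limma). This call was lost when libraries were scaled by quantiles (adjusted p = 0.0183) or centred on their medians (0.0221), and without SC replicate 1 (0.0184), SC replicate 2 (0.0168) or VN replicate 1 (0.0119). CLC3 was at 3.09, 1.91 and 2.15 TPM in SCs and 7.90, 4.73 and 13.5 TPM in VN. The groups of CLC3 did not overlap and its adjusted p was 0.0106 (limma). CLC3 stayed not DE in 13 of 14 alternatives, with an adjusted p of up to 0.0998 after removal of the most abundant genes. The exception was the fit without VN replicate 2 (0.00354). Light chain genes summed to between 35.2 and 42.5 TPM in the SC libraries, and to between 23.5 and 28.1 TPM in the VN libraries.

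**Figure D2:**
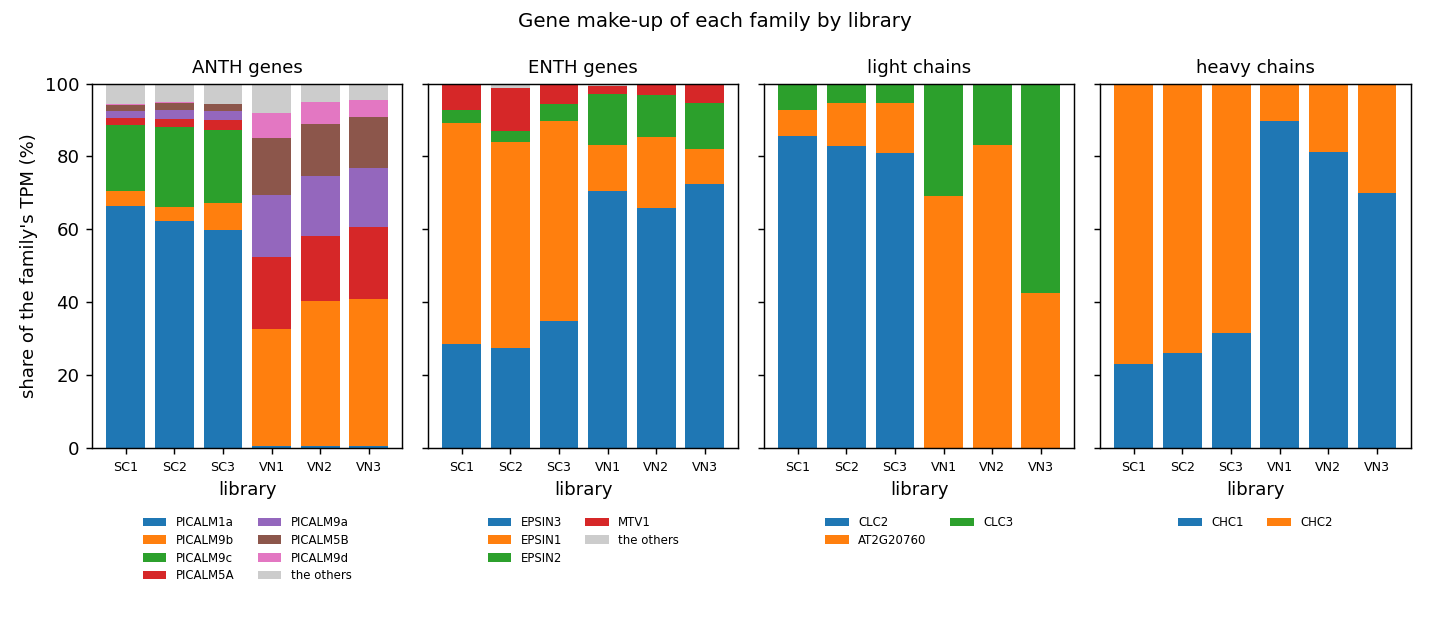
Share of the summed TPM of each family (y axis, percent) that each gene held in each of the 6 libraries, for the ANTH, ENTH, light chain and heavy chain genes. PICALM1a and PICALM9c fill most of the ANTH bar in SCs and PICALM9b, PICALM5A, PICALM9a and PICALM5B in VN, CLC2 appears in SCs only, and CHC1 takes 22.9% to 31.6% of heavy chain TPM in SCs and 70.0% to 89.8% in VN. The CHC1 shares in SCs rest on values near 1 TPM. The part of RNA from the other cell type in the shares was not tested.

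The medium subunits of the AP complexes recognise sorting signals in cargo proteins. Of the 6 tested genes that the table describes as medium subunits, 3 were higher in VN and 0 in SCs. Over all genes tested, these shares were 35.6% and 29.2%. AP1M2, also HAP13, the medium subunit of the AP-1 complex of the trans-Golgi network, was at 51.5, 38.7 and 48.0 TPM in VN and 1.46, 1.32 and 0.597 TPM in SCs (log2 fold change -4.48 ± 0.29; adjusted p = 3.09e-06, limma). AP2M, the medium subunit of the AP-2 complex of the plasma membrane, was at 33.6, 50.7 and 27.9 TPM in VN and 3.16, 2.86 and 1.95 TPM in SCs. Both genes were above 25 TPM in every VN library and under 4 TPM in every SC library. AP3M, whose complex serves the vacuole, was the third, with a log2 fold change of -2.74 ± 0.34. AP4M and AP5M overlapped between the groups and were not DE, and the same held for AT5G05010, which has the description but is in none of the lists of AP subunits used here.

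Proteins with VHS and GAT domains, among them the TOL proteins, sort ubiquitin-tagged cargo toward degradation. Of the 5 tested, 1 was higher in SCs and 1 in VN, beside 29.2% and 35.6% of all genes tested, and 3 were not DE. AT4G32760 was the most abundant, at 123, 101 and 129 TPM in SCs and 26.0, 45.1 and 15.2 TPM in VN, and it made up 93.2% to 98.0% of the TPM of this class in SCs. Its SC mean was 4.10 times its VN mean (log2 fold change 2.12 ± 0.37; adjusted p = 0.000963, limma). TOL6 went the other way, at 0.944, 0.767 and 0.208 TPM in SCs and 74.1, 69.2 and 44.1 TPM in VN (log2 fold change -5.27 ± 0.33). The genes with a domain that binds RNA polymerase II also differed in direction. AT3G26990 was at 21.3, 16.4 and 16.5 TPM in SCs and 0.923, 4.24 and 4.27 TPM in VN, with an adjusted p of 0.00136 by limma that rose to 0.0122 without SC replicate 1 and 0.0104 without SC replicate 3. AT5G65180 had a log2 fold change of -2.71 ± 0.43.

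**Figure D3:**
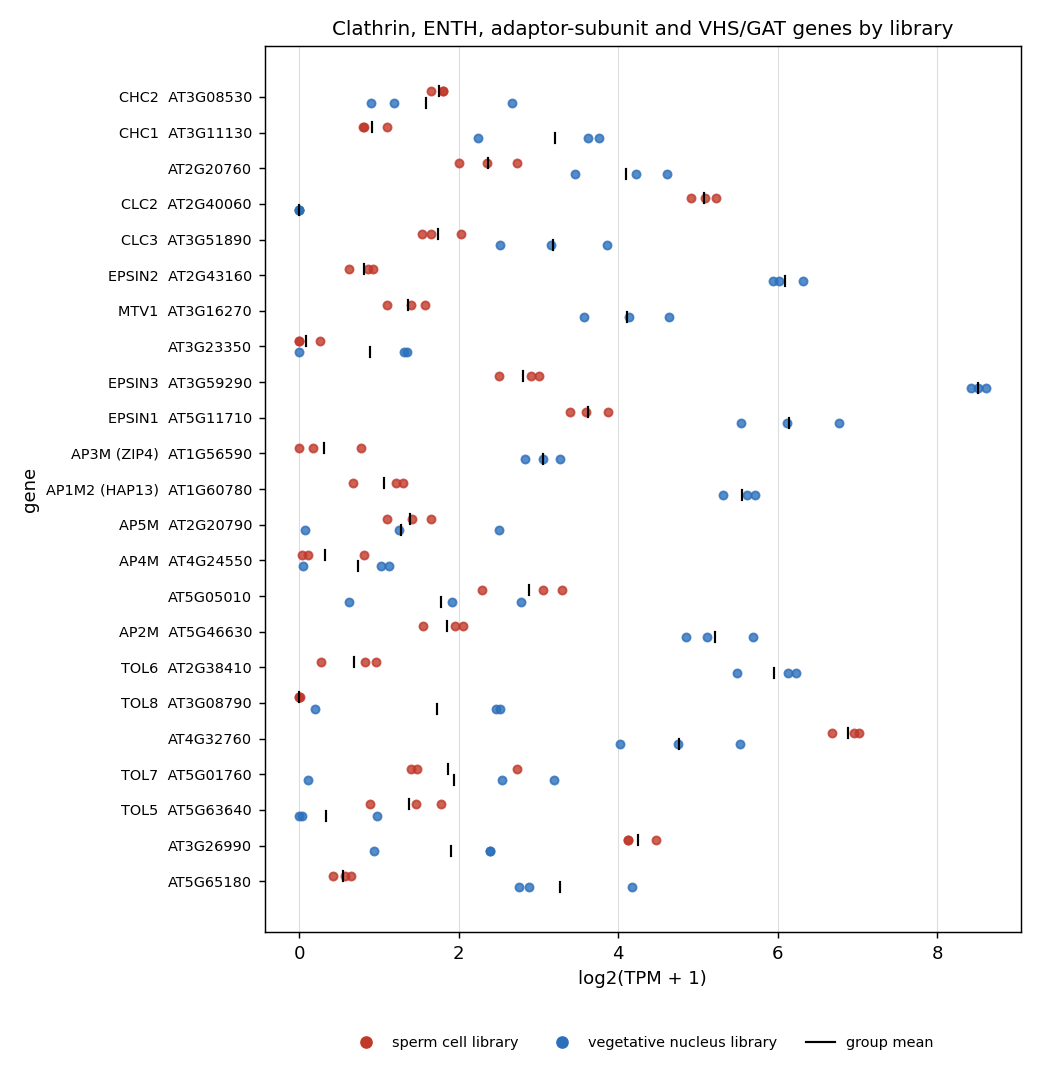
TPM of the 23 other tested genes on a log2(TPM + 1) scale, with 1 point per library and a bar at the mean of the log values of each group. CLC2, AT4G32760 and AT3G26990 lie to the right in SCs, and the epsins, AP1M2, AP2M and TOL6 lie to the right in VN.

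**Figure D4:**
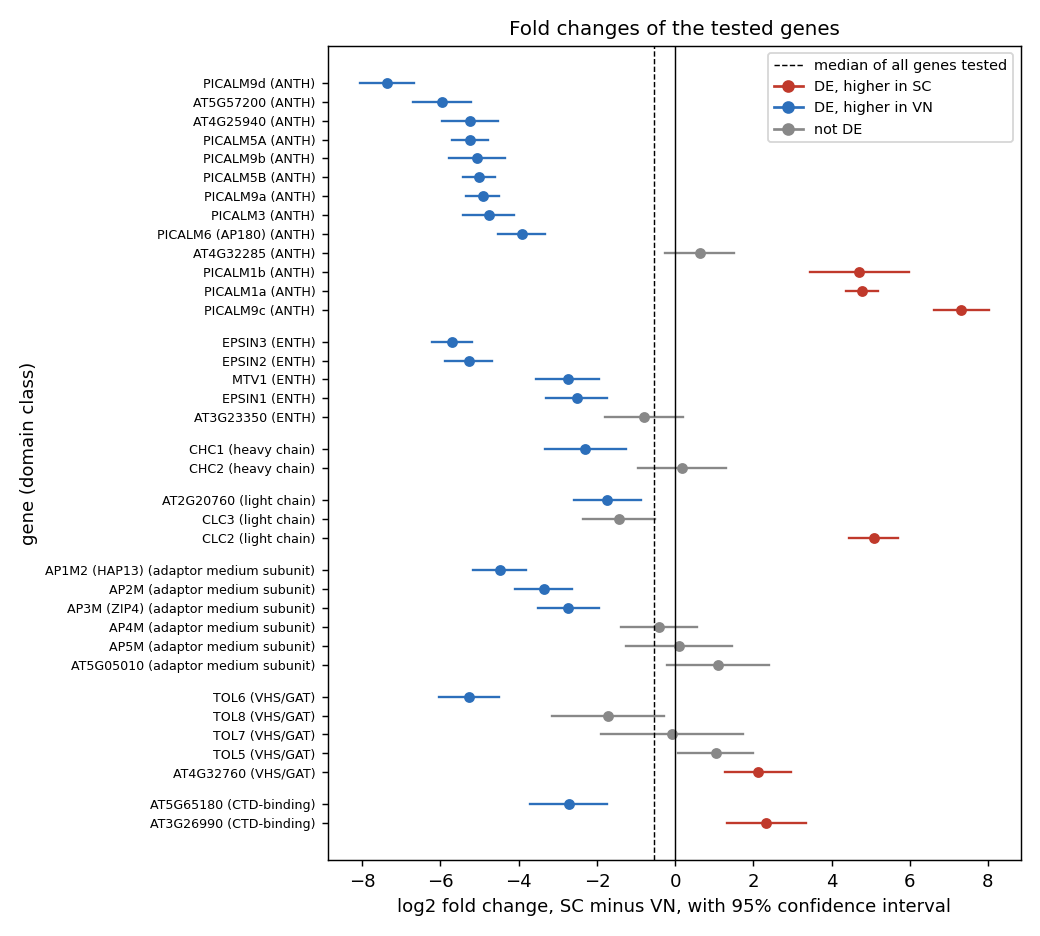
Log2 fold change (SC minus VN, x axis) of the 36 tested genes by domain class, with the 95% confidence interval from limma and the median of all genes tested (-0.55) as a dashed line. Of the points, 20 are DE toward VN, 6 are DE toward SCs and 10 are not DE. The value of CLC2 depends on the pseudocount because its VN values are listed at 0. Values of other genes near 0 in 1 group depend on it too. With a pseudocount of 0.1, PICALM9c moved from 7.32 to 9.48 and PICALM1b from 4.71 to 6.36. PICALM9d moved from -7.37 to -8.69 and AP3M from -2.74 to -4.80.

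The partners of these genes were counted from lists of AP subunits, the TPLATE complex, dynamin-related proteins that pinch off vesicles, and proteins that uncoat them or carry SH3 domains. Of 34 genes that are not among the 49, 26 were tested, of which 14 were higher in VN and 2 in SCs, with a median log2 fold change of -1.86. Over all genes tested, 35.6% were higher in VN and 29.2% in SCs, and nothing particular to these small lists is read from their counts. The 4 genes that encode only AP-2 subunits, among them AP2M, were higher in VN, and so was 1 of the 2 genes for the beta subunit shared with AP-1. Of the 4 tested genes that encode only AP-1 subunits, 3 were higher in VN and 1 was not DE. Of the 7 tested genes of the plant-specific TPLATE complex, 3 were higher in VN and 4 were not DE. The call of AP2A1, a large AP-2 subunit, was kept in only 3 of 14 alternatives. Among the TPLATE genes, EH2 was at 40.1, 38.6 and 21.1 TPM in VN and 5.34, 4.48 and 5.54 TPM in SCs, and EH1 was at 28.3, 12.8 and 17.8 TPM in VN and 0.0459, 0.707 and 0.228 TPM in SCs. Both EH genes had VN values above all of their SC values, and the groups did not overlap for 77.3% of all genes tested.

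AP1G1, the large gamma subunit of AP-1, was at 12.1, 10.8 and 21.6 TPM in VN and 0, 0.0357 and 0 TPM in SCs. AP1S1, a small subunit of the same complex, was at 21.6, 6.11 and 18.1 TPM in VN and 0.201, 0.783 and 1.005 TPM in SCs. AP1/2B1, a beta subunit shared by AP-1 and AP-2, was at 12.9, 17.9 and 14.3 TPM in VN and 4.38, 2.33 and 4.40 TPM in SCs. All 3 were DE toward VN. The second genes for the gamma and beta subunits, named after their values were seen, were not DE. AP1G2 was at 1.51, 2.38 and 2.70 TPM in SCs and 0.263, 0 and 1.25 TPM in VN, with all SC values above all VN values (adjusted p = 0.0279, limma). AP1/2B2 was at 7.08, 4.37 and 0.0778 TPM in VN and 0.0934, 0.0318 and 0.390 TPM in SCs, with overlapping groups (adjusted p = 0.0625, limma). AP2S, the small subunit of AP-2, was at 17.2, 10.5 and 4.22 TPM in VN and 0.696, 0.644 and 0.725 TPM in SCs. Of the uncoating and SH3-domain proteins, AUXILIN-LIKE1, AUXILIN-LIKE2 and SH3P2 were tested. All 3 were DE toward VN, beside 35.6% of all genes tested. AUXILIN-LIKE1 was at 24.3, 21.3 and 22.3 TPM in VN and 0, 0.181 and 0.320 TPM in SCs. AUXILIN-LIKE2 was at 12.7, 15.2 and 10.98 TPM in VN and 0.0919, 0.0436 and 0 TPM in SCs. SH3P2 was at 23.1, 22.8 and 7.66 TPM in VN and 0.321, 0.664 and 0.715 TPM in SCs, so that the lowest VN value of the 3 genes was still above every SC value.

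Of the 6 dynamin-related genes tested, 2 were higher in SCs, 2 were higher in VN and 2 were not DE. Over all genes tested, 29.2% were higher in SCs and 35.6% in VN, so no split particular to these genes is read from the counts. DRP1D was at 69.4, 74.6 and 78.4 TPM in SCs and 0.645, 0.122 and 3.38 TPM in VN. DRP1C, required for pollen development, was at 109, 96.2 and 111 TPM in SCs and 22.8, 19.8 and 32.1 TPM in VN. DRP1B was at 46.6, 41.2 and 53.6 TPM in VN and 16.0, 9.33 and 10.2 TPM in SCs, and DRP2A was at 13.5, 20.0 and 9.49 TPM in VN and 0.789, 0.297 and 1.34 TPM in SCs. None of these 4 DE genes had overlapping groups, and the groups did not overlap for 77.3% of all genes tested. The other two were named after their values were seen. DRP1A was at 3.39, 1.08 and 0.519 TPM in SCs and 0, 0.0912 and 0 TPM in VN, without overlap and not DE (adjusted p = 0.0315, limma), and DRP2B overlapped between the groups.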

How the data were processed

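The authors sorted SCs and VN by FACS, prepared Smart-seq2 libraries, which do not keep strand, trimmed the reads with Trim Galore, aligned them with Hisat2 (TAIR10 genome), built transcripts with StringTie, joined these to Araport11 and quantified them with Salmon. The deposited values are TPM per gene, and how transcripts were summed to genes is not given in the sources used here. Each library sums to 1000000 TPM. The deposited table holds no read counts, so reads per gene and library cannot be had from it and no counting error is given. Genes above 0 TPM numbered 13735, 15112 and 12418 in SC replicates 1, 2 and 3. In VN replicates 1, 2 and 3 they numbered 15289, 10202 and 13649, so that VN replicate 2 had the fewest.

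Groups were taken from the sample titles. The filter kept genes with 1 TPM or more in 2 or more of the 6 libraries, and these were tested by limma 3.58.1 (R 4.3.3) on log2(TPM + 1), with empirical Bayes moderation, a mean-variance trend and a two-sided test. The study's filter on CPM was replaced by one on TPM. The procedure was tested on simulated data, where it missed part of the changed genes, mostly those with a large spread and the smaller changes, so a gene that is not DE may still differ. The genes and lists were chosen with earlier results of these data known. Library values are given for each heavy chain, light chain, ENTH and ANTH gene that passed the filter, for other members with a mean of at least 10 TPM in a group, and for listed partners that were also DE. Alternatives were a pseudocount of 0.1, no filter, a filter on 3 libraries, quantile scaling, centring on the median, no trend, a replicate block and each library left out, and, chosen after seeing the data, removal of the 10 most abundant genes of each library. Gene models, upstream sequences and 31-base words are from RefSeq TAIR10.1. Tables used Python 3.11.15 with pandas 2.3.3, and figures used matplotlib 3.10.9.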

Additional observations from a re-analysis of the deposited data

How the results depend on the processing

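Of the 26 DE genes among the 49, 5 of the 6 higher in SCs and 18 of the 20 higher in VN kept their call in all 14 alternatives, the exceptions being AT3G26990, CHC1 and AT2G20760. The count of DE genes among the 49 was 25 or 26 under the other settings and 23 to 29 when single libraries were left out. Removing the 10 most abundant genes of each library, chosen after seeing the data, left AT2G20760 at a log2 fold change of -1.07 (limma adjusted p = 0.0429). In the partner lists, the number of genes higher in SCs was 2, and 4 after centring on the median. TOL7, not DE, had a log2 fold change of -0.08, which became 0.45 with a pseudocount of 0.1, 0.19 with quantile scaling, 0.44 with centring, 0.58 after removal of abundant genes and -0.99 to 0.54 with single libraries left out. AP4M, not DE, turned to 0.10 with centring. With single libraries left out, AP5M ranged from -0.49 to 0.72 and CHC2 from -0.17 to 0.71. Some genes that were not DE passed under single alternatives, namely TOL8 with quantile scaling (limma adjusted p = 0.00825) and without VN replicate 2 (0.000133), AT3G23350 (0.00233) and CLC3 (0.00354) without VN replicate 2, and TOL5 with centring (0.00591); the causes were not tested. The difference in CHC1 share ranged from -58.6 to -48.7 percentage points. Replicate numbers are shared by both groups, but same-numbered libraries did not deviate together (r = 0.00853, -0.0350 and -0.0194 across 10955 genes), and the replicate block gave 26 DE genes among the 49 and 6927 over all genes, against 7105 without it. With TPM only, the precision of values near 1 TPM is not known.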
